A study of Mus musculus with 9 samples.

Results

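The plasma lipases and their regulators were followed as a group of 9 genes, fixed by name and not by their values: *Lipc*, *Lpl*, *Lipg*, *Angptl4*, *Angptl8*, *Lmf1*, *Gpihbp1*, *Pltp* and *Lcat*, of 51912 genes listed. Liver RNA had been sequenced after a fast. The genotype, on C57Bl/6, was *Apoe*-/-*Ndst1* f/f *Alb-Cre*+ throughout. Of the 9 livers, 5 came from mice given an antisense oligonucleotide (ASO) against apoC-III and 4 from mice given a control ASO, each at 50 mg/kg/week for 8 weeks. Both groups therefore lacked apoE in the whole body, and *Alb-Cre*, which is driven by the albumin promoter, removed the heparan sulfate sulfotransferase gene *Ndst1* in hepatocytes, so no liver stands for a mouse with intact *Apoe* and *Ndst1*. The age, sex and diet of these mice are not named beside the RNA sequencing. Each liver is 1 mouse, and each gene is given in TPM (transcripts per 1000000), a length-corrected share of the library.

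As background, triglycerides on lipoproteins are cut by lipases that act on the vessel wall. Lipoprotein lipase (LPL) is made in muscle and fat and little in adult liver, whereas hepatocytes make hepatic lipase (*Lipc*). Endothelial lipase (*Lipg*) acts mainly on HDL phospholipids. LMF1 helps these lipases fold in the endoplasmic reticulum, GPIHBP1 holds LPL on capillary endothelium, and ANGPTL4 and ANGPTL8 belong to the angiopoietin-like proteins that restrain LPL. PLTP transfers phospholipids between lipoproteins, and LCAT esterifies cholesterol on HDL. ApoC-III, the target of the ASO, is known to inhibit LPL on triglyceride-rich lipoproteins.

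The values of all genes share a few features that touch the members. Between 64.0% and 83.6% of deposited TPM per apoC-III ASO liver, and between 66.3% and 77.6% per control ASO liver, belonged to 7SL RNA, the RNA of the signal recognition particle. Nuclear protein-coding genes held 1.94% to 8.64%. Levels are therefore given below as scaled TPM: protein-coding genes rescaled to 1000000 per liver and divided by median-of-ratios factors. Control ASO replicate 4 stood apart, with the smallest factor (0.496) and 67.7% of its scaled TPM in 20 genes. TPM keeps no read depth, so no counting interval can be given. The RNA of the target checked the labels: *Apoc3* was at 334 to 623 scaled TPM under the apoC-III ASO and at 3170.3 to 4293 under the control ASO, without overlap. The tissue matched its label, as each of the 8 hepatocyte markers was detected in every liver. They summed to 22059.9 to 48407 and 28327 to 41286 scaled TPM in the apoC-III ASO and control ASO livers. *Alb* alone held most of each sum, at 15309 to 39725 and 19512 to 25978, while *Hnf4a* was at 122 to 326 over the 9 livers. The log2 change of *Apoc3* was -3.01 (SE 0.23), or 8.06-fold lower, with a limma adjusted p of 3.83e-04. *Apoe* was listed at 23.2 to 66.4 and *Ndst1* at 4.81 to 11.6 scaled TPM over the 9 livers; with no liver of another genotype, neither level checks its deletion.

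None of the 9 members was called between the treatments (limma on log2(scaled TPM + 1), adjusted over 11954 genes, a call needing more than a 1.5-fold change and an adjusted p below 0.05). Over all genes tested, 2 were called, or 0.0167%, both lower in the apoC-III ASO livers: *Apoc3* and the aminopeptidase gene *Anpep*. With DESeq2 on read counts and the same thresholds, the paper reported more genes in each direction. The absence of a call here therefore does not show that a member was unchanged. All 9 members passed the minimum of 1 scaled TPM averaged over the 9 livers, which did not use the groups. Of these, 5 had a log2 change above 0 and 4 below 0, against 49.8% of all genes above 0. Their median change was 0.02, and that of all genes was -0.0012 on the same log2 scale. At an unadjusted limma p under 0.05 there were 0 members, against 5.56% of all genes. The groups overlapped for each of the 9, whereas 1.83% of all genes had groups that did not overlap. The members' adjusted p-values ran from 0.907 to 0.998.

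**Figure D1:**
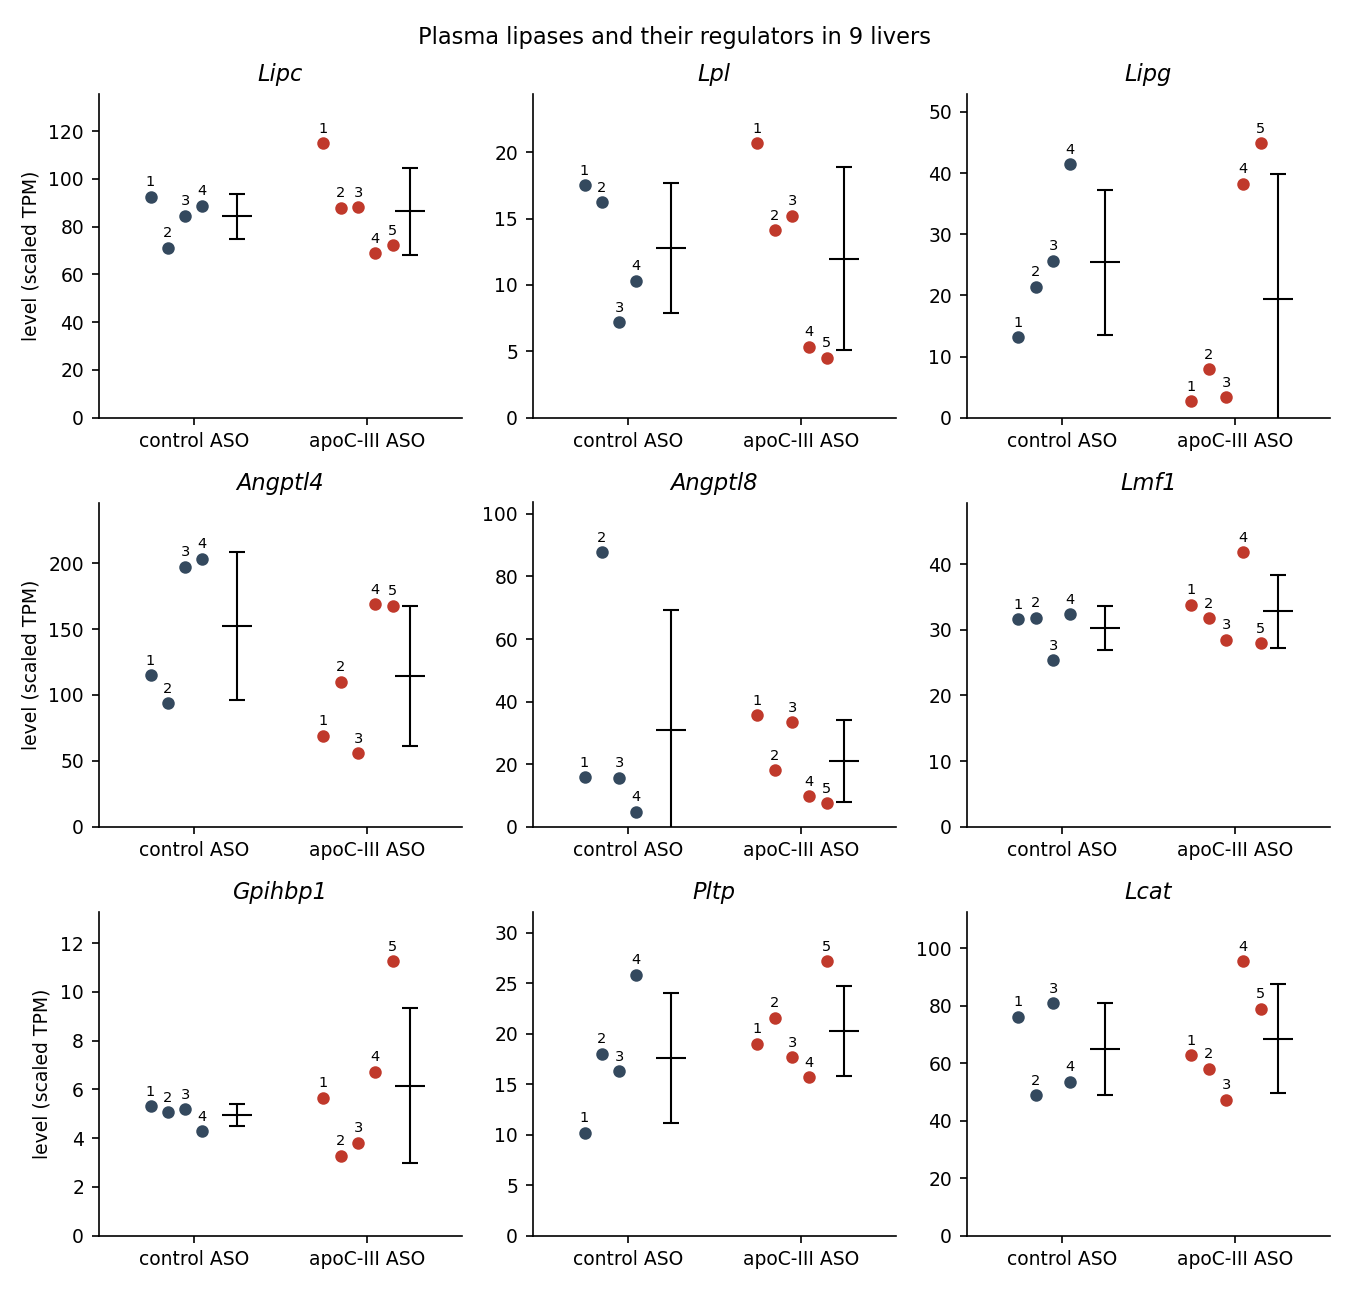
Level in scaled TPM (y axis, from 0, with its own range in each panel) of the 9 members in control ASO livers (dark, n = 4) and apoC-III ASO livers (red, n = 5); small numbers are replicates, and bars are mean ± SD, drawn down to 0 where the mean minus the SD is negative. The groups overlap in every panel, *Lipc* and *Lmf1* vary little, and *Lipg* runs from 2.67 to 44.9 within the apoC-III ASO group.

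Among the 3 lipases, hepatic lipase was the most abundant. *Lipc* (ENSMUSG00000032207, chr9:70798128-70952226, minus strand, GRCm38) had 115, 88.0, 88.1, 68.8 and 72.3 scaled TPM in replicates 1 to 5 of the apoC-III ASO group. In control ASO replicates 1 to 4 it was at 92.6, 71.1, 84.7 and 88.7. The groups overlapped, with a 1.67-fold range under the apoC-III ASO and 1.30-fold under the control ASO, and apoC-III ASO replicate 1 held the highest value. The means were 86.5 ± 18.3 (SD, n = 5) and 84.3 ± 9.34 (SD, n = 4), a log2 change of 0.02 (SE 0.21, limma adjusted p = 0.998). On this scale the 95% interval of the fold change ran from 0.740 to 1.39. A change of *Lipc* mRNA beyond 1.5-fold in either direction lay outside that interval. Without the median-of-ratios factors the log2 change was 0.49 (limma adjusted p = 0.496), where the median of all genes was 0.41.

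Lipoprotein lipase mRNA was low, and its spread lay within the groups. *Lpl* (ENSMUSG00000015568, chr8:68880491-68907448, plus strand) was at 20.7, 14.1, 15.2, 5.34 and 4.53 scaled TPM in the apoC-III ASO livers and at 17.5, 16.2, 7.19 and 10.3 in the control ASO livers. Replicates 4 and 5 of the apoC-III ASO group were below every control ASO liver, and replicate 1 was above every one. The log2 change was -0.21 (SE 0.43, limma adjusted p = 0.978), with means of 12.0 ± 6.91 (SD, n = 5) and 12.8 ± 4.89 (SD, n = 4). As LPL is also made by adipocytes and macrophages, their markers are set beside it. The adipocyte genes *Adipoq* and *Lep* were at 0 in all 9 livers, 2 of the 8 adipocyte markers passed the minimum, and the summed level of the 8 was 10.05 to 22.8 in apoC-III ASO and 7.93 to 24.3 in control ASO livers. The 10 macrophage and Kupffer cell markers summed to 111 to 154 and to 99.0 to 162 scaled TPM, and 0 of the 9 tested were called. In whole liver, fewer cells of a type and less RNA per cell cannot be told apart.

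Endothelial lipase mRNA had the largest within-group SD of the 9 members on the log2 scale (1.38). *Lipg* (ENSMUSG00000053846, chr18:74939322-74961263, minus strand) measured 2.67, 7.92 and 3.31 scaled TPM in the first 3 replicates under the apoC-III ASO, and 38.3 and 44.9 in replicates 4 and 5. In the control ASO livers it was at 13.1, 21.4, 25.6 and 41.5. The apoC-III ASO livers thus lay on both sides of the control ASO livers, with a 16.8-fold range against 3.16-fold. The means were 19.4 ± 20.5 (SD, n = 5) and 25.4 ± 11.9 (SD, n = 4). The log2 change was -1.02 (SE 0.74, limma p = 0.192, adjusted p = 0.907), the largest in size among the members, and the exact two-sided permutation p on the level was 0.619, where 0.0159 is the smallest that 5 against 4 livers can give. The 95% interval of the fold change was 0.161 to 1.51, which includes no change.

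Of the lipase inhibitors, *Angptl4* was the most abundant member of all. *Angptl4* (ENSMUSG00000002289, chr17:33773750-33781830, minus strand), a gene that rises with fasting and fatty acids, was at 69.2, 110.0, 55.7, 169 and 168 scaled TPM in the apoC-III ASO livers. In the control ASO livers it was at 115, 93.7, 197 and 203. The lowest pair of values belonged to apoC-III ASO replicates 1 and 3, and the highest pair to control ASO replicates 3 and 4. The log2 change was -0.47 (SE 0.38, limma p = 0.239, adjusted p = 0.917), and the exact permutation p of 0.302 was the smallest among the members. The means were 114 ± 53.2 (SD, n = 5) and 152 ± 56.2 (SD, n = 4).

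*Angptl8* (ENSMUSG00000047822), a gene that rises with feeding and insulin, varied 18.4-fold between livers. It was at 35.7, 18.1, 33.4, 9.83 and 7.51 scaled TPM in the apoC-III ASO livers and at 15.7, 87.8, 15.6 and 4.78 in the control ASO livers. Control ASO replicate 2 held the highest value of all 9 livers and control ASO replicate 4 the lowest. The log2 change was -0.06 (SE 0.69, limma adjusted p = 0.998). Without control ASO replicate 2 it was 0.67, and without control ASO replicate 4 it was -0.65, so its sign rested on which of these livers was kept. *Angptl8* spans 21835510 to 21837347 on chromosome 9 (plus strand) and overlaps *Dock6* on the opposite strand over 1838 bp, its whole length.

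The sequence before the start site is shown for *Angptl8*, with a wide spread between livers, and *Lipc*, with a narrow one. RefSeq promoter windows on GRCm38.p6 were at hand for 5 of the 9 members (*Lipc*, *Angptl8*, *Lmf1*, *Pltp* and *Lcat*), and the 250 bases before the start are used. Capitals mark matches on either strand to any of the motifs searched: the TATA box written as TATAAA, the box with the letters CCAAT, the GC box as GGGCGG, the E-box as CACGTG, the nuclear receptor half-site as AGGTCA, the D-box as TTATGNAA and the HNF1 half-site as GTTAA.
Angptl8, chr9:21835260-21835509, plus strand: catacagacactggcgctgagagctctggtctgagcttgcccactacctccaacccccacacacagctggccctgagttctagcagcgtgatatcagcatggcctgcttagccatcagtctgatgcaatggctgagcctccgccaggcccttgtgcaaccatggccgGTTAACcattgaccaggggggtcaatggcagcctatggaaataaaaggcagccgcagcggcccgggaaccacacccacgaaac
Lipc, first of its 2 start sites, chr9:70952222-70952471, minus strand: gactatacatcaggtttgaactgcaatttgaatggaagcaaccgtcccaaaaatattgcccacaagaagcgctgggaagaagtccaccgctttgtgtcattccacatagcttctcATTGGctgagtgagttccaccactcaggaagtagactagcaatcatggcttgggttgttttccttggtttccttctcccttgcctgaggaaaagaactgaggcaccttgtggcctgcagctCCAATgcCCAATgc
The *Angptl8* window held GTTAA on both strands, overlapping, 83 to 78 bases before the start, a motif that 21.7% of the 32851 windows of this length hold. The *Lipc* window held CCAAT 3 times, and 33.8% of windows hold it. CACGTG, found in 6.02% of windows, and TTATGNAA, found in 3.07%, had no match in these windows, which says only that these letters are not there.

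Of the factors that fold and anchor the lipases, *Lmf1* varied little. *Gpihbp1* ranged 3.44-fold under the apoC-III ASO and 1.23-fold under the control ASO. *Lmf1* (ENSMUSG00000002279, chr17:25579085-25662826, plus strand) was at 33.8, 31.8, 28.5, 41.9 and 28.0 scaled TPM in the apoC-III ASO livers and at 31.6, 31.8, 25.4 and 32.3 in the control ASO livers. This was the narrowest spread of the 9 members, and the log2 change was 0.10 (SE 0.20, limma adjusted p = 0.974) with a 95% interval of 0.796 to 1.45-fold. *Gpihbp1* (ENSMUSG00000022579, chr15:75596628-75599481, plus strand), an endothelial gene, was the lowest member. It was at 5.65, 3.28, 3.82, 6.73 and 11.3 scaled TPM in the apoC-III ASO livers. The control ASO livers, at 5.30, 5.07, 5.18 and 4.30, lay close together inside that span. Its log2 change was 0.16 (SE 0.30, limma adjusted p = 0.974). The 10 endothelial markers summed to 151 to 215 scaled TPM in apoC-III ASO and 163 to 196 in control ASO livers, and 0 of 10 were called.

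The lipid transfer and esterification genes differed by less than their spread as well. *Pltp* (ENSMUSG00000017754, chr2:164839518-164857711, minus strand) was at 19.0, 21.6, 17.7, 15.7 and 27.2 scaled TPM in the apoC-III ASO livers and at 10.2, 18.01, 16.3 and 25.9 in the control ASO livers. Its log2 change of 0.24 (SE 0.27, limma adjusted p = 0.948) was the highest of the members. Of its 31-base words, the unit kallisto matches, 13.9% also occur in transcripts of *Ctsa*, which overlaps it on the opposite strand. *Lcat* (ENSMUSG00000035237, chr8:105939551-105943382, minus strand) was at 62.7, 58.1, 47.3, 95.6 and 78.9 scaled TPM in the apoC-III ASO livers. In the control ASO livers it was at 76.2, 48.8, 80.9 and 53.6, inside that span, and the log2 change was 0.07 (SE 0.26, limma adjusted p = 0.992). An antisense gene, *Gm16156*, covers 3832 bp of *Lcat*. For the other members at most 3.97% of 31-base words were shared with other genes, and whether strand was used in the quantification is not given in the sources used here.

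**Figure D2:**
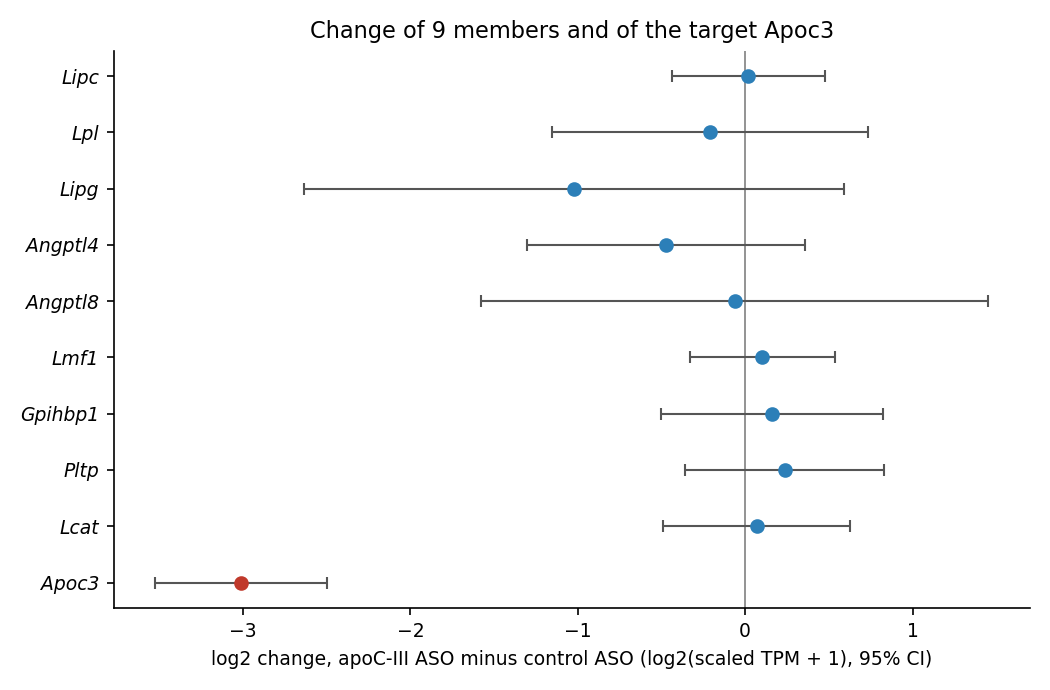
Log2 change in apoC-III ASO against control ASO livers (x axis, on log2(scaled TPM + 1)) with 95% confidence intervals from limma, for the 9 members (blue) and the ASO target *Apoc3* (red). Every member's interval includes 0, with *Lipg* at -1.02 and *Pltp* at 0.24 as the outermost values, while *Apoc3* lies at -3.01.

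The members differed in how much they varied between livers of the same treatment. The within-group SD of log2(scaled TPM + 1) was 0.20 for *Lmf1* and 0.24 for *Lipc*, and 4.04% and 9.19% of the tested genes varied less than these. *Lcat*, *Pltp* and *Gpihbp1* had SDs of 0.37, 0.40 and 0.46, and 35.6%, 42.4% and 54.3% of genes varied less. *Angptl4* had an SD of 0.66, *Lpl* 0.76, *Angptl8* 1.29 and *Lipg* 1.38. Of the tested genes, 80.9%, 87.5%, 97.9% and 98.3% varied less than these 4 in turn. Against genes within 2-fold of its own level the place of *Lipg* was the same, with 98.3% of 3996 such genes varying less.

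In the apoC-III ASO group the 4 widest members, and also *Lipc*, *Lcat* and *Gpihbp1*, separated the same replicates, while *Lmf1* and *Pltp* did not. Replicates 4 and 5 had the highest *Lipg* and *Angptl4* and the lowest *Lpl* and *Angptl8* of the 5, and replicates 1 to 3 had the reverse. Replicates 4 and 5 also had the highest *Lcat* and *Gpihbp1* and the lowest *Lipc*. In the control ASO group, replicates 3 and 4 likewise had higher *Lipg* and *Angptl4* and lower *Lpl* and *Angptl8* than replicates 1 and 2, although *Angptl8* in replicates 1 and 3 was nearly equal (15.7 and 15.6). *Lipc*, *Lcat* and *Gpihbp1* did not separate the control ASO livers in this way. Some clock genes, which cycle over the day, differed between the same livers of the apoC-III ASO group. *Arntl*, the clock activator, measured 17.7, 11.1 and 30.9 scaled TPM in replicates 1 to 3 of the apoC-III ASO group. It was at 0.740 and 2.75 in replicates 4 and 5, and at 0.320, 1.06, 1.11 and 2.46 in control ASO replicates 1 to 4. *Dbp*, an output of the clock chosen here after its values were seen, measured 2.92, 22.2 and 2.70 in apoC-III ASO replicates 1 to 3. It was at 152 and 97.7 in replicates 4 and 5, and at 68.2 to 103 under the control ASO. The listed clock genes *Hlf* and *Nr1d2* did not separate the apoC-III ASO livers in this way. *Hlf* was at 27.3 scaled TPM in apoC-III ASO replicate 3, between the 28.2 and 16.8 of replicates 4 and 5. *Nr1d2* was at 36.1 in apoC-III ASO replicate 2, between the 45.1 and 29.6 of replicates 4 and 5. Of the 14 clock genes tested, 0 were called, 4 had an unadjusted limma p under 0.05, and *Arntl* had a log2 change of 2.03 with an adjusted p of 0.864. Library make-up differed between these livers too. The 7SL share was 83.6% and 81.5% in apoC-III ASO replicates 4 and 5, against 64.0%, 73.3% and 74.0% in replicates 1 to 3. In control ASO replicates 3 and 4 it was 71.3% and 77.6%, against 70.5% and 66.3% in replicates 1 and 2. Times of tissue collection are not in the labels. The parts of the clock and of library make-up in the members' spread were not tested.

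**Figure D3:**
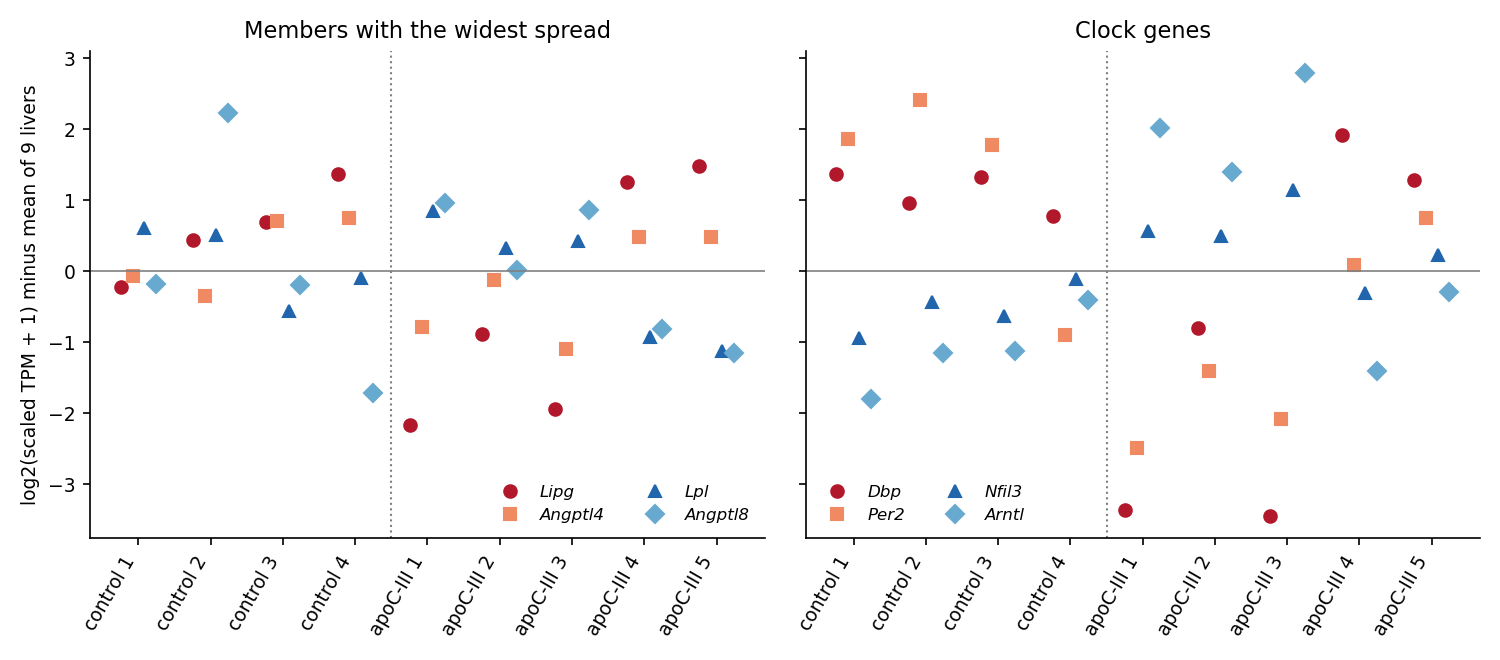
Log2(scaled TPM + 1) minus the mean of the 9 livers (y axis) for each liver (x axis, control ASO left of the dotted line), for the 4 members with the largest within-group SD (left) and for 4 clock genes (right). *Lipg* is below its mean in apoC-III ASO replicates 1 to 3 and above it in replicates 4 and 5, as is *Dbp*, while *Lpl* and *Arntl* take the opposite sides in those livers.

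Ratios within a liver, taken as differences of log2(scaled TPM + 1), gave no difference between treatments past the test. On this scale the *Angptl4* to *Angptl8* ratio ran from 0.09 in control ASO replicate 2 to 5.14 in control ASO replicate 4. Its mean was 2.50 ± 1.66 (SD, n = 5) under the apoC-III ASO and 2.90 ± 2.11 (SD, n = 4) under the control ASO. The *Lpl* to *Gpihbp1* ratio was above 0 in 7 of 9 livers and was -0.29 and -1.15 in apoC-III ASO replicates 4 and 5. The apoC-III ASO minus control ASO differences were -0.41 for *Angptl4* to *Angptl8*, -0.37 for *Lpl* to *Gpihbp1*, -0.05 for *Lipc* to *Lcat* and 0.23 for *Lipc* to *Lpl*. The exact permutation p adjusted over these 4 ratios was 0.905 for each.

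By mean scaled TPM over the 9 livers, the order was *Angptl4* (131 ± 54.8, SD), *Lipc* (85.5 ± 14.2), *Lcat* (66.9 ± 16.7), *Lmf1* (31.7 ± 4.64), *Angptl8* (25.4 ± 25.7), *Lipg* (22.1 ± 16.5), *Pltp* (19.1 ± 5.24), *Lpl* (12.4 ± 5.74) and *Gpihbp1* (5.62 ± 2.35). TPM is length-corrected, so these levels can be set side by side. Of the 8 neighbor pairs, *Lcat* over *Lmf1* alone passed: *Lcat* was higher in 9 of 9 livers, by 1.03 on the log2 scale (exact sign-flip p = 0.00391, the smallest possible; adjusted p = 0.0313). The other neighbors did not differ beyond their spread, with adjusted exact p-values of 0.117 to 0.781. *Lipg* had a higher mean than *Pltp* but a log2 difference of -0.23, as high livers weigh more in the mean.

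For each member, the 3 genes with the closest profile over the 9 livers are named as a description, by mean absolute distance of centered log2(scaled TPM + 1). *Lipg* lay closest to *Por*, the reductase that serves cytochromes P450, at 0.21, then to *E030018B13Rik* at 0.24 and *Nrg4* at 0.33, where the median gene lay at 1.19. *Angptl8* lay closest to *Mid1* (0.27), *Loxl2* (0.42) and *Grm8* (0.44), against a median of 0.97. *Lpl* lay closest to *Kifc3* (0.19), *Rassf6* (0.23) and *Izumo4* (0.23), against 0.68. *Angptl4* lay closest to *Gusb* (0.16), *Ccdc85b* (0.18) and *Aldh16a1* (0.18), against 0.63. The closest genes of the narrow members were *Itih2*, *Washc1* and *Ccdc88b* for *Lipc*, and *Slc25a1*, *Psmd7* and *Hsd17b4* for *Lmf1*, all at 0.09 or less. Such small distances follow from a narrow spread and do not mean a closer likeness. The mean absolute deviation was 0.17 for *Lipc* and 0.13 for *Lmf1*, against 1.16 for *Lipg*. The lists for the rest were *Pecr*, *Myl12a* and *Hmgb1* for *Gpihbp1*, *Midn*, *Galnt18* and *Prkg1* for *Pltp*, and *Furin*, *Gm13762* and *Sall2* for *Lcat*.

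Other genes of the pathway were read from lists written from general knowledge, with earlier results of these data known. The 6 apolipoproteins and related proteins on lipoproteins that activate or inhibit LPL all had log2 changes below 0 (median -0.38), but *Apoc3* alone was called. *Apoc2*, the activator of LPL, was at 80.5 to 153 scaled TPM under the apoC-III ASO and 116 to 155 under the control ASO (log2 change -0.38, SE 0.22, limma adjusted p = 0.9001). Of 13 genes for lipase folding, trafficking and cleavage, 5 had changes above 0 and 8 below, and 0 were called. The smallest limma p-values there belonged to *Lman1*, a cargo receptor of the endoplasmic reticulum (log2 change -0.56, SE 0.20, adjusted p = 0.864, groups not overlapping), and the convertase *Pcsk7* (log2 change -0.96, SE 0.34, adjusted p = 0.864). Of 11 HDL genes, 10 were tested, 5 were above 0 and 5 below, and 0 were called; *Scarb1*, the HDL receptor, had a log2 change of 0.52 (SE 0.26, limma adjusted p = 0.884).

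Of 4 other angiopoietin-like genes, 2 were tested and 0 called. *Angptl2* was at 1.78 to 3.65 scaled TPM under the apoC-III ASO and 5.27 to 10.2 under the control ASO, without overlap. Its log2 change was -1.13 (SE 0.27, limma adjusted p = 0.775). Of 11 other lipase genes, 5 were tested and 0 called, and the smallest p among them was that of monoglyceride lipase, *Mgll* (log2 change -0.79, SE 0.38, limma adjusted p = 0.884). Genes that respond to the same signals as the inhibitors were not called either. Of the 13 tested PPAR alpha targets and fasting genes, which rise with fatty acids as *Angptl4* does, 12 had changes below 0 with a median of -0.38 and 0 had an unadjusted p under 0.05. Of the 13 genes that respond to insulin, LXR or ChREBP, 9 were below 0 with a median of -0.40, and *Acaca*, *Thrsp* and *Elovl6* had unadjusted limma p-values of 0.0217, 0.0346 and 0.0475 (adjusted p = 0.872, 0.878 and 0.878). In the lists of 9 LXR targets and 9 glucocorticoid responsive genes 0 were called, and at an unadjusted p under 0.05 there were 0 and 1, the phosphatase gene *Dusp1* (1.23, SE 0.40, limma adjusted p = 0.864). Among 8 stellate cell markers 0 were called and 2 had an unadjusted p under 0.05, *Lrat* (-0.89) and *Dcn* (-0.57).

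Across 18 alternative settings, the 9 members gave 154 fits, and 0 of these were called. The smallest adjusted p in any of them was 0.450 (limma). Some settings give the same log2 changes by construction, so the fits are not separate checks. The change of *Lipg* stayed below 0 in each of its 16 fits, from -1.50 to -0.59, and those of *Pltp* and *Lmf1* stayed above 0 in each, whereas 6 members changed sign in at least 1 fit.

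**Figure D4:**
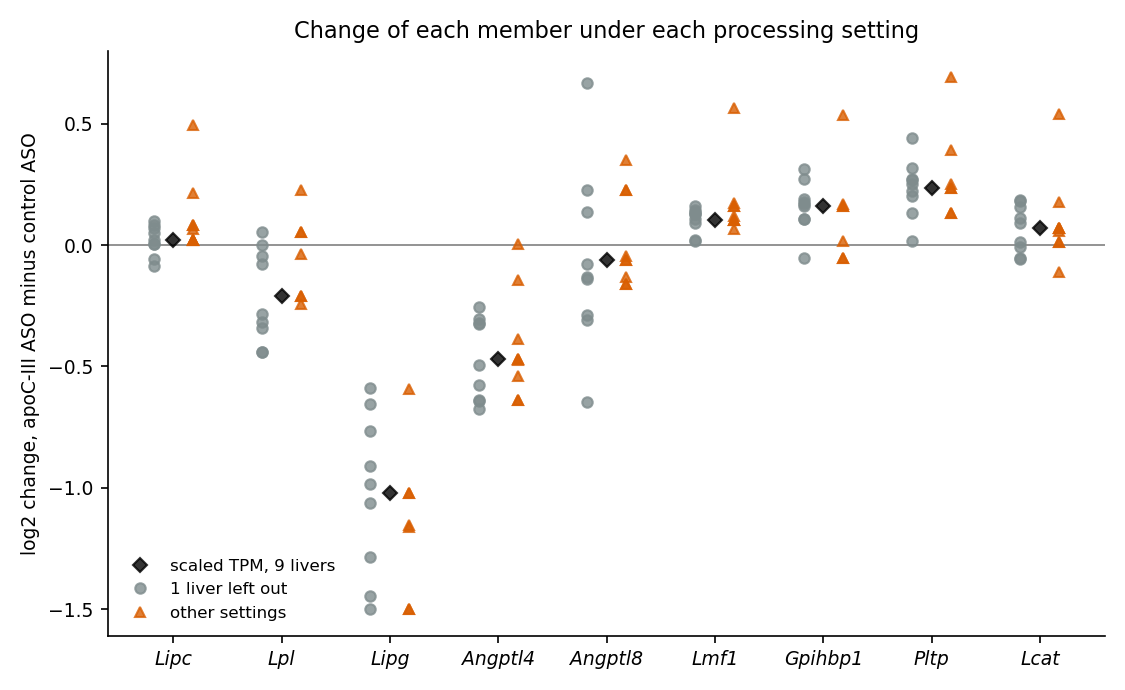
Log2 change of each member in apoC-III ASO against control ASO livers (y axis) under scaled TPM with 9 livers (black diamonds), with 1 liver left out (gray circles, 9 per member) and under the other settings (orange triangles). *Lipg* lies below 0 throughout, from -1.50 to -0.59, and *Angptl8* runs from -0.65 to 0.67 as single livers are left out.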

How the data were processed

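RNA from 9 livers (5 apoC-III ASO, 4 control ASO) had been depleted of ribosomal RNA and sequenced as stranded single-end libraries. The authors deposited TPM per gene; the submitters' processing notes name kallisto 0.43.1 and GRCm38, while STAR, featureCounts and DESeq2 appear in the study's methods, for counts not used here. The link between these 2 routes is not stated. TPM keeps no depth, so its counting error is unknown and no intervals for single livers are given. Identifiers were matched to GENCODE M21 (51633 of 51912, 99.46%).

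Each liver's values for the 21780 nuclear protein-coding genes were brought to a sum of 1000000 and divided by median-of-ratios factors. Genes with a mean of at least 1 (11954) were tested with limma 3.58.1 (lmFit, eBayes with trend, no covariates) in R 4.3.3 on log2(value + 1), a scale that understates changes of low genes. Calls needed more than a 1.5-fold change and a p below 0.05 after Benjamini-Hochberg adjustment, as in the paper. The code was tested on simulated data. Single members, ratios and order used exact two-sided permutation tests in scipy 1.17.1 (Python 3.11.15, pandas 2.3.3, numpy 2.4.6, matplotlib 3.10.9).

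The 9 members and the 16 other lists were chosen with earlier results of these data known. The text names all members, from each list up to 3 genes with the smallest p, the target and inactivated genes, and the 3 closest profiles per member. *Dbp*, *Anpep*, *Alb*, *Nr1d2* and *Hlf* fall outside this rule and were named after their values were seen. So do *Adipoq* and *Lep*, named because they read 0, and the pancreatic acinar genes, which were not tested. Alternatives were 3 other scalings, a pseudocount of 0.1, no filter, a minimum of 5, array weights, each liver left out, a replicate block and, added after seeing the data, livers 1 to 4 without the block. Samples of a group are separate mice, per the series' design text.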

Additional observations from a re-analysis of the deposited data

Results flagged for a closer look

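In 43 groups of 4 or 5 livers examined for a single liver far from the rest, 3 stood apart, and chance marks about 1 in 20 such groups. The *Angptl8* level of control ASO replicate 2, 87.8 scaled TPM, was far above the other 3 control ASO livers (4.78 to 15.7). The *Lmf1* level of control ASO replicate 3, 25.4 scaled TPM, was below the other 3 (31.6 to 32.3), a narrow group. The summed level of the pancreatic acinar markers was highest in apoC-III ASO replicate 3, at 1.34 scaled TPM, where *Pnlip*, *Cpa1*, *Cel*, *Ctrb1* and *Cela3b* were at 0.136 to 0.389, and the control ASO livers were at 0. None of the pancreatic markers passed the minimum of 1.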

How the results depend on the processing

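The 9 members were never called in 154 alternative fits, and 133 of these fits kept the sign. Some of these signs could not differ. Having no filter or a minimum of 5 changes the genes tested but not a member's log2 change. Livers 1 to 4 without the block are the livers left without apoC-III ASO replicate 5, and the block gives the same log2 changes. With 1 liver left out, the log2 changes ran from -0.087 to 0.10 for *Lipc*, -0.44 to 0.054 for *Lpl*, -1.50 to -0.59 for *Lipg*, -0.68 to -0.25 for *Angptl4*, -0.65 to 0.67 for *Angptl8*, 0.02 to 0.16 for *Lmf1*, -0.055 to 0.31 for *Gpihbp1*, 0.02 to 0.44 for *Pltp* and -0.058 to 0.18 for *Lcat*. Without the median-of-ratios factors the median of all genes moved to 0.41, and *Lpl* (0.23), *Angptl4* (0.0047) and *Angptl8* (0.35) turned positive, below that median. With TPM as deposited the median was 0.11. Array weights gave -0.11 for *Lcat*. With a replicate block on livers 1 to 4, *Lpl* was at 0.054, *Angptl8* at 0.22 and *Gpihbp1* at -0.055, as they were in the same livers without the block, and *Lipg* at -1.50, with an unadjusted limma p of 0.00655 (adjusted 0.522) against 0.0461 (adjusted 0.856) without the block. The block called 1 gene higher and 2 lower. The labels state no pairing of the mice by replicate number. Same-numbered deviations correlated at 0.03 to 0.19, with 2 of 4 pairs over 0.1. The best match in the other group had the same number for replicate 4 only. So few correlations cannot decide whether livers of the same number share a batch.

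*Apoc3* had a log2 change of -3.13 to -2.53 over the settings, but in TPM as deposited, at -2.62, its adjusted p was 0.104 (limma). That scaling called 5 genes higher and 6 lower, all genes with factors 1 and 1, the scaling without factors 1 lower and no filter 1 lower. With 1 liver left out 1 to 3 were called lower and 0 higher. The causes were not tested. Left-out livers moved the ratio differences from -1.34 to 0.34 (*Angptl4* to *Angptl8*), -0.63 to 0.11 (*Lpl* to *Gpihbp1*), -0.18 to 0.16 (*Lipc* to *Lcat*) and 0.020 to 0.46 (*Lipc* to *Lpl*), and the level differences from -0.19 to 0.58 (*Angptl8* over *Lipg*) and -0.42 to 0.042 (*Lipg* over *Pltp*). *Lcat* over *Lmf1* stayed at 0.95 to 1.08, and its adjusted p rose to 0.0625 as fewer livers allow no smaller one. In TPM as deposited 4 members had a mean under 1 and could not be fitted.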
